A study of Homo sapiens with 4 samples.

Results

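The genes described here are 10 components of the Hippo pathway, taken by name from the 40188 genes that have a value in the deposited tables. They are the transcriptional coactivators YAP1 and WWTR1 (the gene for TAZ), their DNA-binding partners TEAD1, TEAD2, TEAD3 and TEAD4, the kinases LATS1 and LATS2, and the feedback regulators AMOTL2 and PTPN14. All 10 were found under a single Ensembl identifier, and all passed the filter of a mean of at least 1 cRPKM that left 12706 genes for comparison. They were measured by RNA-seq of polyA RNA in HEK293, an established line from human embryonic kidney. Each of the 4 libraries came from its own stable line carrying a doxycycline-inducible construct, for MSI1, SRRM3, SRRM4 or, in the control, an empty vector. All lines, the empty vector included, were kept in medium with tetracycline-free serum and given 1 µg/mL doxycycline for 24 h before RNA was taken. MSI1 is an RNA-binding protein of neural progenitors, and SRRM3 and SRRM4 are related splicing regulators that act on neural microexons. The sources used here do not say whether a line was 1 clone or a pool.

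The Hippo pathway is a kinase cascade that restrains YAP and TAZ. STK3 and STK4 (MST kinases) with SAV1 activate LATS1 and LATS2, which work with MOB1A and MOB1B and phosphorylate YAP and TAZ, so that these are held in the cytoplasm by 14-3-3 proteins or degraded. Unphosphorylated YAP and TAZ enter the nucleus, bind TEAD proteins and switch on genes such as CCN1, CCN2 and ANKRD1. Some of the switched-on genes encode restraints on YAP itself, among them LATS2, AMOTL2 and PTPN14, which makes them both readouts and feedback arms of the pathway. In cultured epithelial lines such as HEK293 the pathway is known for its response to cell density, serum and the cytoskeleton. Its main control is on protein phosphorylation and location, neither of which is measured by transcript levels.

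The libraries held 60288244 to 63003121 counted reads. With 1 library per group no value has a replicate, a line and its transgene cannot be told apart, and no p-value is given. Intervals are exact 95% intervals (Poisson for a level, conditional Clopper-Pearson for a ratio of depth-scaled counts). They reflect counting error alone and set 1 library against another. The induced genes matched their labels, with SRRM3 at 38.53 cRPKM against 0.49 in the empty vector, SRRM4 at 63.78 against 0.39 and MSI1 at 62.43 against 8.38. Of 8 genes listed for HEK293, largely epithelial and neural, 7 passed the filter, and the list summed to 1444.44 to 1804.94 cRPKM per library, mostly VIM and KRT8. VIM, at 973.50 of 1526.33 cRPKM in the empty vector, is not particular to epithelial or neural cells. The sum therefore does not by itself identify the line. Fibroblast markers summed to 3.84 to 4.87 cRPKM, most of it COL1A1, and blood markers to 4.76 to 7.17, nearly all of it CD68. The fibroblast markers COL1A2 and DCN were at 0.00 cRPKM in every library, and the blood markers PTPRC, CD3E and HBB were each under 0.1 cRPKM. In bulk RNA, fewer cells of a type and less RNA per cell cannot be told apart.

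TEAD proteins recognise the bases GGAATG, which read CATTCC on the other strand. These 6 bases were searched on both strands in RefSeq promoter windows (build GRCh38.p14) from 250 bases before to 50 bases after an annotated start. Windows were found for 8 of the 10 members, 12 windows in all. The motif was present in 4 of the 12, 1 each for YAP1, LATS2, AMOTL2 and PTPN14, against 14.0% of 35116 windows of that length over all genes. The 3 feedback genes are therefore among the members with a window that holds it. AMOTL2 also has a window without it, with its start at base 134375417 of chromosome 3. The 12 bases on either side are printed for each of these sites, read along the gene's strand with the motif in capitals, beside part of the CCN2 promoter, a well known YAP-TEAD target whose window holds 3 copies.
YAP1 (chr11:102110273-102110302, plus strand): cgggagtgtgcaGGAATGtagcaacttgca
LATS2 (chr13:21061560-21061589, minus strand): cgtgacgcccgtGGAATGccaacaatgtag
AMOTL2 (chr3:134374499-134374528, minus strand): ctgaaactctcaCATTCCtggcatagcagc
PTPN14 (chr1:214551785-214551814, minus strand): cctcccgggccgCATTCCtccccgcccccg
CCN2 (chr6:131951459-131951488, minus strand): ggaaggtggggaGGAATGcgaGGAATGtcc
Counted from the RefSeq start of each window, the sites lie 162 bases before it for YAP1, 69 before for AMOTL2, 200 before for PTPN14 and 9 after for LATS2. The AMOTL2 site falls in an exon of another annotated AMOTL2 transcript (GENCODE 29), and the YAP1 site in an exon of the noncoding gene AP001527.2. A match is a description of these letters and not evidence of binding. No motif was found in the windows of WWTR1, TEAD2, TEAD3 and LATS1, which says only that these letters are not in those windows.

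On the cRPKM scale, which is per length and so allows genes to be compared, the members were moderately expressed. In the empty vector YAP1 was highest at 20.75 cRPKM, above 69.0% of the 12706 genes, and LATS2 was lowest at 2.59 cRPKM, above 16.2%. Between them, in falling order, were TEAD4, LATS1, PTPN14, TEAD2, TEAD1, WWTR1, TEAD3 and AMOTL2. Counts per member and library ran from 878 (LATS2, empty vector) to 8323 (PTPN14, SRRM3), so that counting error was small for each of them. Across the libraries the highest value was 1.05 to 1.5 times the lowest for 9 members, and 2.0 times for AMOTL2.

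**Figure D1:**
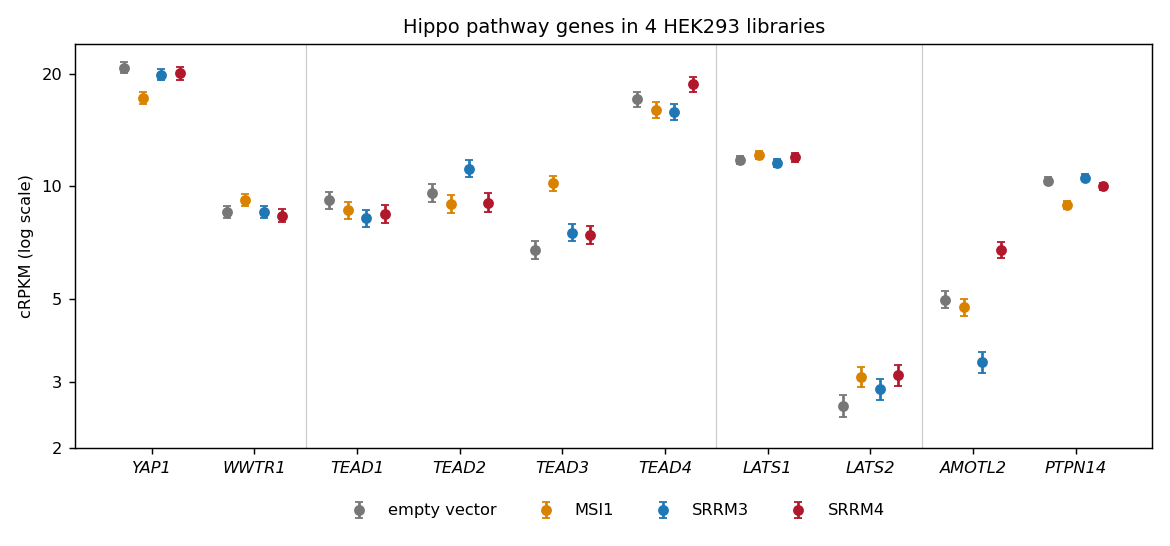
cRPKM (log axis) of the 10 members in each of the 4 libraries (colours), grouped by role; each point is 1 library and its bar the exact 95% Poisson interval. AMOTL2 spreads most, from 3.39 in SRRM3 to 6.77 in SRRM4, and TEAD3 stands out in MSI1 at 10.18.

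YAP1 and WWTR1 encode the coactivators that LATS kinases hold in check. YAP1 (ENSG00000137693, GRCh38 chromosome 11, 102110461 to 102233423) was at 20.75 cRPKM in the empty vector, 17.22 in MSI1, 19.88 in SRRM3 and 20.01 in SRRM4. The MSI1 library was the low one, and the other 3 had intervals that overlapped. The ratio of MSI1 to the empty vector was 0.830 (0.787 to 0.875), and 18.4% of all genes compared had an absolute log2 fold at least as large. WWTR1 (ENSG00000018408, chromosome 3, 149517235 to 149736714) was at 8.54, 9.19, 8.55 and 8.34 cRPKM in the same order. It was highest in MSI1, the library in which YAP1 was lowest, at 1.08 times the empty vector (1.02 to 1.14). Per length there was therefore less YAP1 for each WWTR1 in MSI1, with a cRPKM ratio of 1.87 (1.78 to 1.98), than in the empty vector at 2.43 (2.30 to 2.56), SRRM3 at 2.33 and SRRM4 at 2.4. The sum of both coactivators lay between 26.41 cRPKM in MSI1 and 29.29 in the empty vector.

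The TEAD genes encode the transcription factors through which YAP and TAZ reach DNA. Their summed level was nearly constant, at 42.64 cRPKM in the empty vector, 43.80 in MSI1, 42.68 in SRRM3 and 43.62 in SRRM4, while the make-up of that sum differed. TEAD3 (ENSG00000007866, chromosome 6, 35473597 to 35497076) was at 6.77 cRPKM in the empty vector, 10.18 in MSI1, 7.53 in SRRM3 and 7.41 in SRRM4. MSI1 was clearly the high library. Its ratio to the empty vector was 1.5 (1.40 to 1.62), a log2 fold of 0.55 that 3.3% of genes reached or passed. Against MSI1, SRRM3 was at 0.739 (0.689 to 0.793) and SRRM4 at 0.728 (0.677 to 0.781). Log2 folds at least as large were found in 9.1% and 7.2% of genes. These ratios and the one to the empty vector share the MSI1 library. As a share of the TEAD sum, TEAD3 made up 23.2% in MSI1 and 15.9% in the control, 17.6% in SRRM3 and 17% in SRRM4.

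TEAD4 (ENSG00000197905, chromosome 12, 2959330 to 3040673), the most abundant family member in these cells, was at 17.06 cRPKM in the control, 16.00 in MSI1, 15.78 in SRRM3 and 18.73 in SRRM4. It was highest in SRRM4, at 1.1 times the empty vector (1.03 to 1.17) and 1.19 times SRRM3 (1.11 to 1.27), and SRRM3 was at 0.925 of the empty vector (0.864 to 0.991). Sorted by level, only SRRM4 was apart from its neighbour. TEAD2 (ENSG00000074219, chromosome 19, 49340595 to 49362457) was at 9.62 cRPKM in the control, 8.99 in MSI1, 11.16 in SRRM3 and 9.05 in SRRM4. SRRM3 was the high library here, at 1.16 times the empty vector with an interval excluding 1, and the SRRM4 level was 0.811 of it (0.750 to 0.876). TEAD1 (ENSG00000187079, chromosome 11, 12674591 to 12944483) was at 9.19, 8.63, 8.21 and 8.43 cRPKM in that order of libraries. It was highest in the control, with ratios to it of 0.893 in SRRM3 (0.828 to 0.964) and 0.918 in SRRM4 (0.850 to 0.990), while MSI1 at 0.939 had an interval including 1. Sorted by level, no neighbouring libraries were apart beyond counting error. Each induced library was thus the highest of the 4 for a different TEAD gene, by 1.5-fold or less over the empty vector. Absolute log2 folds at least as large were common for TEAD2 in SRRM3 (25.1% of genes) and TEAD4 in SRRM4 (33.6%). For TEAD3 in MSI1 the share was 3.3%. A window of 50 bases shared with another gene's transcripts was rare in this family, at most 0.28% of the windows (TEAD4, with TEAD3).

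**Figure D2:**
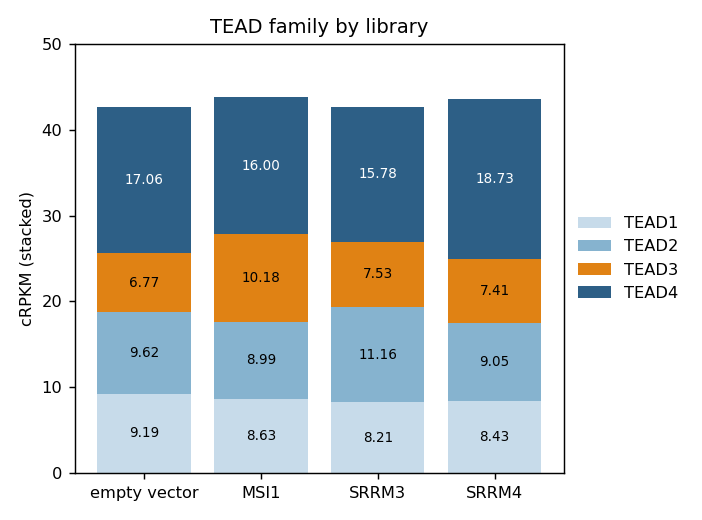
Stacked cRPKM of TEAD1, TEAD2, TEAD3 and TEAD4 in each library, with the value of each gene in its segment. The stacks differ little in height (42.64 to 43.80 cRPKM), while the TEAD3 segment is largest in MSI1.

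LATS1 and LATS2 encode the kinases that phosphorylate YAP and TAZ. LATS1 (ENSG00000131023, chromosome 6, 149658153 to 149718256) was the steadiest member, at 11.75 cRPKM in the empty vector, 12.12 in MSI1, 11.54 in SRRM3 and 11.96 in SRRM4. With the libraries sorted by level no neighbours differed beyond counting error, at 5359 to 5678 counts in each. The ends of that order did, with SRRM3 at 0.952 of MSI1 (0.917 to 0.988). LATS2 (ENSG00000150457, chromosome 13, 20973032 to 21061547), which is also a target of YAP, was at 2.59 cRPKM in the control, 3.10 in MSI1, 2.88 in SRRM3 and 3.13 in SRRM4. The empty vector was lowest, and each induced library exceeded it, by ratios of 1.20 in MSI1 (1.09 to 1.31), 1.11 in SRRM3 (1.02 to 1.22) and 1.21 in SRRM4 (1.11 to 1.33). These 3 ratios share the empty-vector library. Absolute log2 folds at least as large were found in 24.5% of genes in MSI1, 43.8% in SRRM3 and 12.9% in SRRM4. Sorted by level, the induced libraries did not differ between neighbours beyond counting error, and the ratio of SRRM4 to SRRM3 was 1.09 (0.995 to 1.19). LATS1 was 3.82 to 4.54 times as abundant as LATS2 per length, with the highest ratio in the empty vector.

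AMOTL2 encodes an angiomotin-like scaffold that binds YAP and promotes its phosphorylation by LATS kinases. The gene (ENSG00000114019, chromosome 3, 134355874 to 134375479) was at 4.99 cRPKM in the empty vector, 4.76 in MSI1, 3.39 in SRRM3 and 6.77 in SRRM4. SRRM3 was low and SRRM4 high, with the empty vector and MSI1 between them and not apart from each other (ratio of MSI1 to the empty vector 0.955, 0.885 to 1.03). Against the empty vector the ratio was 0.680 in SRRM3 (0.626 to 0.740) and 1.36 in SRRM4 (1.27 to 1.46). Against MSI1 in place of the empty vector, the ratios were 0.713 in SRRM3 (0.655 to 0.775) and 1.42 in SRRM4 (1.33 to 1.53). The direct ratio of SRRM4 to SRRM3 was 2.0 (1.85 to 2.16), and its log2 fold of 0.90 with the pseudocount was reached or passed by 0.6% of genes. The pseudogene RPL39P5 lies inside AMOTL2, and 2.22% of the 50-base windows of AMOTL2 are shared with it. RPL39P5 has no value in these data, so the share of AMOTL2 reads that is uncertain is not known.

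PTPN14 encodes a phosphatase that binds YAP and keeps it out of the nucleus. It was the member with the most reads (ENSG00000152104, chromosome 1, 214348696 to 214552449), at 10.35 cRPKM in the empty vector, 8.93 in MSI1, 10.54 in SRRM3 and 10.00 in SRRM4. MSI1 was the low library, at 0.862 of the empty vector (0.835 to 0.890). In contrast to AMOTL2, it was no lower in SRRM3 than in SRRM4 (ratio of SRRM4 to SRRM3 0.949, 0.919 to 0.979). The 3 feedback genes thus did not share an order over the libraries.

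AMOTL2 has paralogs, AMOT and AMOTL1, that encode the other angiomotins. AMOT was at 64.73 cRPKM in the empty vector, 41.65 in MSI1, 94.68 in SRRM3 and 49.52 in SRRM4. It was thus highest in the library where AMOTL2 was lowest. The ratio of SRRM4 to SRRM3 was 0.523 for AMOT (0.514 to 0.532) against 2.0 for AMOTL2. AMOTL1 lay between 18.23 and 20.70 cRPKM, with a ratio of 1.07 (1.04 to 1.1). In every library AMOT was the most abundant of these genes per length.

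The best known YAP-TEAD targets showed larger differences than AMOTL2 between the SRRM libraries. CCN2, which encodes a matricellular protein, was at 16.94 cRPKM in the control, 9.27 in MSI1, 3.31 in SRRM3 and 30.52 in SRRM4. In the same order CCN1, from the same family, was at 17.97, 18.89, 9.17 and 25.32 cRPKM, and ANKRD1, a muscle ankyrin repeat protein, at 5.48, 14.43, 1.20 and 6.98. All 3 were lowest in SRRM3, like AMOTL2. CCN1 and CCN2 were also highest in SRRM4, while ANKRD1 was highest in MSI1. Immediate early genes, which respond to serum and mechanical stimuli, differed between the same libraries. Of 9 that passed the filter, 5 were at least 25% higher in SRRM4 than in SRRM3, with an interval excluding 1, and 0 were at least 20% lower. Over all genes compared, 3.84% were higher and 7.46% lower by that rule. EGR1 was at 1.55 cRPKM in SRRM3 and 4.34 in SRRM4. The summed cRPKM of the whole list of 13 was 232.56 in the empty vector, 320.07 in MSI1, 215.10 in SRRM3 and 253.03 in SRRM4. Their part in the AMOTL2 difference was not tested.

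**Figure D3:**
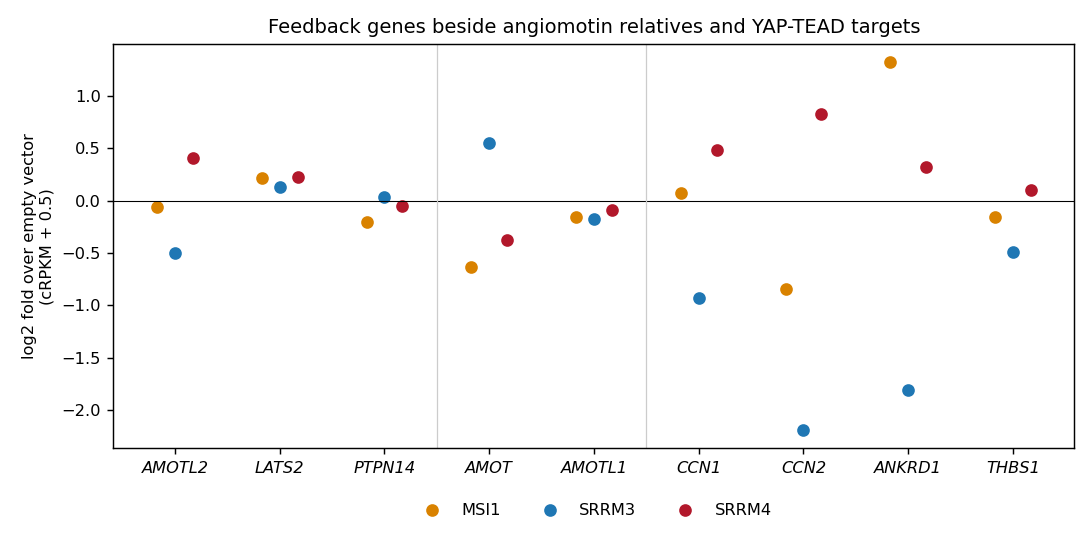
log2 fold of cRPKM + 0.5 over the empty vector for the feedback genes (left), the angiomotin paralogs (middle) and 4 YAP-TEAD targets (right). Each point is 1 induced library, and all share the same empty-vector library. The 4 targets are part of 15 that passed the filter and do not stand for all of them. With an interval excluding 1, 8 of the 15 were at least 20% lower in SRRM3 and 0 at least 25% higher. In SRRM4, 3 were higher and 1 lower by that rule. Targets such as F3 (0.01 in SRRM3, 0.06 in SRRM4) and CRIM1 (0.03 and -0.03) differed little in both libraries. AMOTL2 (-0.50 in SRRM3, 0.41 in SRRM4) lies on the same sides of 0 as CCN1 and CCN2 in those libraries, AMOT lies on the opposite sides, and LATS2 (0.13 to 0.23) and PTPN14 (-0.20 to 0.03) lie closer to 0.

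By the rule of at least a 2-fold difference (an absolute log2 fold of 1 on cRPKM + 0.5), 0 of the 10 members were called in any comparison. Over all genes compared the rule called 0.669% for MSI1 over the empty vector, 0.882% for SRRM3, 0.771% for SRRM4 and 0.512% for SRRM4 over SRRM3. A smaller rule asked for at least 25% more, or at least 20% less, with an interval excluding 1, and called 1 member in each comparison. It was TEAD3 (higher) in MSI1, where the rule called 13.0% of all genes, 8.00% as higher and 4.98% as lower. In SRRM3 it was AMOTL2 (lower), against 10.7% of all genes, 6.85% higher and 3.86% lower. AMOTL2 (higher) was again the member called in SRRM4, against 6.02% (2.95% higher, 3.07% lower), and in SRRM4 over SRRM3, against 11.3% (3.84% higher, 7.46% lower). A share of 1 in 10 is near the background in all 4 comparisons, so the count itself does not set the members apart. With MSI1 as the control in place of the empty vector, TEAD3 and AMOTL2 were both called in SRRM3, against 16.6% of genes, and in SRRM4, against 16.0%. An interval excluding 1 without regard to size was found for 5 members in MSI1, 6 in SRRM3, 6 in SRRM4 and 4 in SRRM4 over SRRM3. That rule called 59.9%, 57.7%, 48.2% and 57.6% of all genes, which shows how little counting error alone restricts at this depth. The median absolute log2 fold of the members was 0.10, 0.12, 0.10 and 0.06 in the 4 comparisons, and that of all genes 0.12, 0.11, 0.09 and 0.11.

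**Figure D4:**
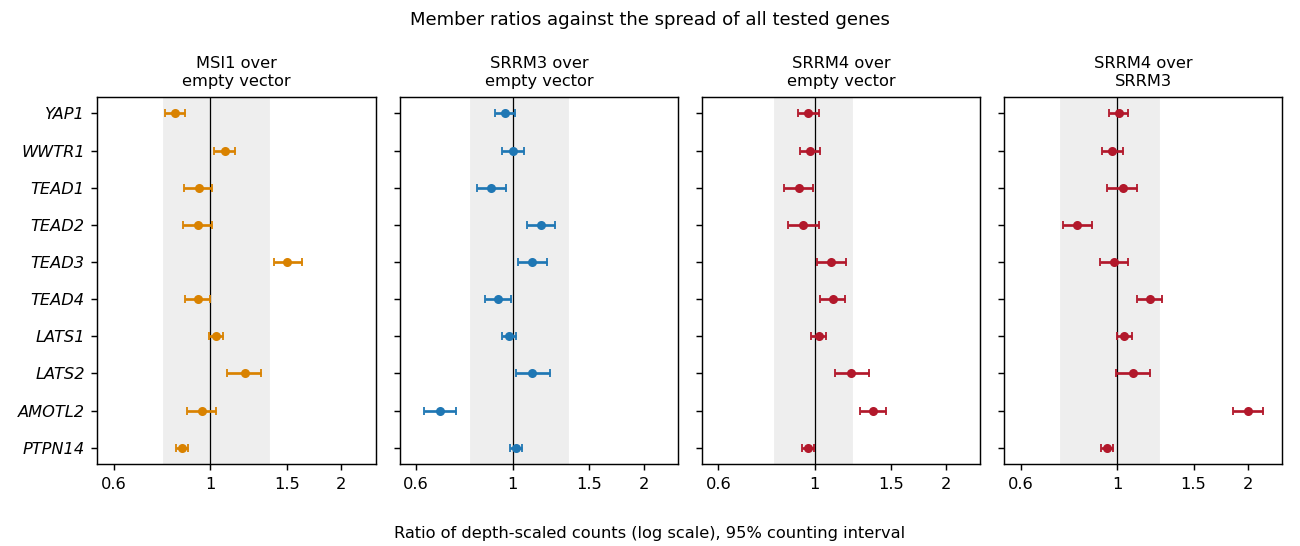
Ratio of depth-scaled counts (log axis) for each member in 4 comparisons, with the 95% counting interval; the grey band spans the 5th to 95th percentile of the ratio over all genes compared. Outside the band lie TEAD3 in MSI1 (1.5), AMOTL2 in SRRM3 (0.680), AMOTL2 in SRRM4 (1.36) and AMOTL2 in SRRM4 over SRRM3 (2.0), and the other ratios lie within it.

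The rest of the pathway was read from 5 lists of other components. The kinase cassette (17 genes, all passing the filter) holds STK3 and STK4, their cofactors and the MAP4K and TAOK kinases that also activate LATS. By the smaller rule, 1 was lower in MSI1, the kinase MAP4K2 at 0.87 against 1.12 cRPKM. In SRRM3, 1 was higher, MAP4K1 at 1.55 against 1.19 cRPKM, and 0 were called in SRRM4 or in SRRM4 over SRRM3. Over all genes the rule called 13.0% in MSI1, 10.7% in SRRM3, 6.02% in SRRM4 and 11.3% in SRRM4 over SRRM3. Median log2 folds were 0.056 in MSI1, 0.061 in SRRM3 and -0.014 in SRRM4, against 0.0156, 0.0029 and -0.0035 over all genes. Upstream adaptors and polarity proteins (17 of 18 passing) had medians of 0.033, -0.014 and -0.009. DCHS1, a large cadherin, was at 1.63 cRPKM in MSI1 against 1.01 in the control, a ratio of 1.61 (1.46 to 1.77), while its partner FAT4 was lower at 0.776 (0.733 to 0.822). The scaffold WWC3 and the polarity protein PATJ were lower in SRRM4 than in the empty vector, at 0.707 (0.668 to 0.748) and 0.686 (0.652 to 0.721). In SRRM4 over SRRM3, WWC3 and PATJ were also lower, at 0.707 and 0.772, and WWC1 (KIBRA) was higher, at 1.30 (1.23 to 1.37). For WWC3 and PATJ, these ratios and those to the empty vector share the SRRM4 library.

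LATS inhibitors and the STRIPAK phosphatase complex, which dampens the MST kinases, had 0 of 14 members called against the empty vector in any library. Over all genes the smaller rule called 13.0% in MSI1, 10.7% in SRRM3 and 6.02% in SRRM4. In SRRM4 over SRRM3, where 11.3% of all genes were called, 1 of the list was called. It was the LIM protein AJUBA at 6.64 against 4.60 cRPKM, a ratio of 1.44 (1.34 to 1.56). YAP and TEAD cofactors (11 of 12 passing) include AMOT, given above. The only other one called was VGLL3, a TEAD-binding cofactor, which was lower in MSI1 at 0.70 of the empty vector (0.640 to 0.766). YAP-TEAD targets other than the members had 15 of 22 genes passing. By the smaller rule 3 were higher and 3 lower in MSI1, where 8.00% of all genes were higher and 4.98% lower. In SRRM3 0 were higher and 8 lower, against 6.85% and 3.86% of all genes. In SRRM4 3 were higher and 1 lower, against 2.95% and 3.07%. In SRRM4 over SRRM3, 7 were higher and 0 lower, against 3.84% and 7.46% of all genes. Their median log2 folds were -0.058, -0.279 and 0.059 over the empty vector and 0.129 for SRRM4 over SRRM3. Among the 8 lower in SRRM3, besides CCN1, CCN2 and ANKRD1, GADD45B was at 9.54 against 16.95 cRPKM. In MSI1 the growth factor gene TGFB2 was at 1.00 against 1.63 cRPKM, and FJX1, a secreted protein, at 2.48 against 3.88. IGFBP3 was the target called lower in SRRM4, at 1.48 against 1.97 cRPKM.

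**Figure D5:**
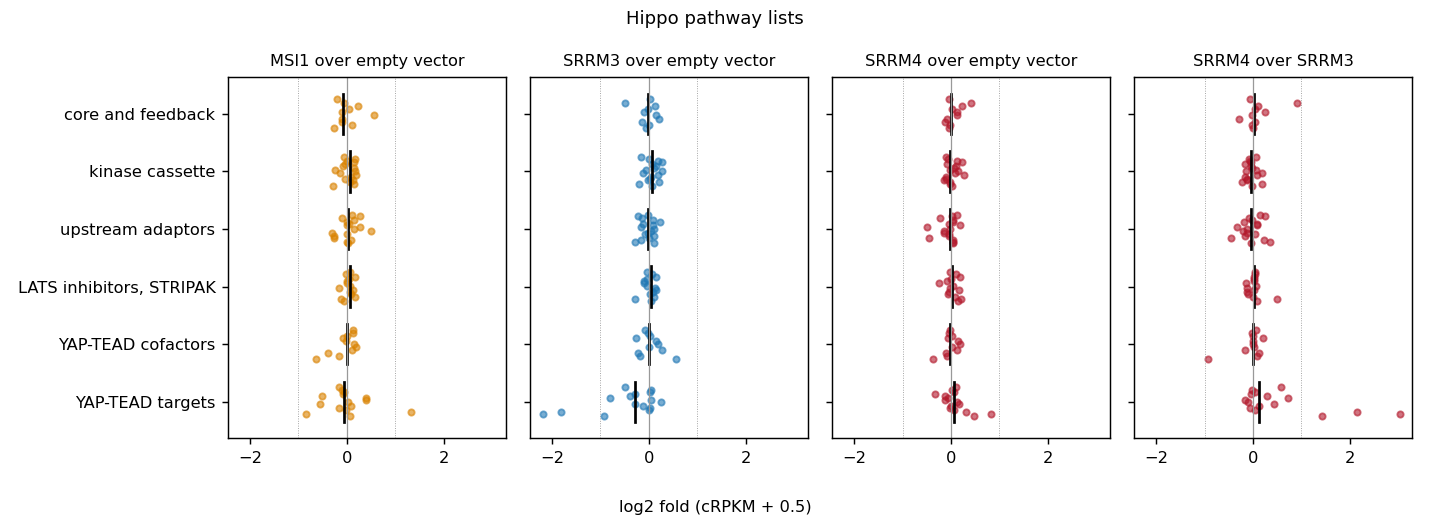
log2 fold of cRPKM + 0.5 for the genes of 6 Hippo lists that passed the filter, in 4 comparisons; each point is a gene, black bars are list medians and dotted lines mark a 2-fold difference. The YAP-TEAD targets spread most (-2.19 to 0.24 in SRRM3), and the 10 core and feedback genes stay between the dotted lines.

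AMOTL2 had the widest range of the members, so the genes closest to its pattern were sought over the 4 libraries, by Euclidean distance of the centred log2(cRPKM + 0.5). The closest of 12705 were SLCO4A1 (distance 0.147; 2.51, 2.60, 1.96 and 3.86 cRPKM from control to SRRM4 in the order above), SAPCD1 (0.162) and ETV4 (0.165). Over only 4 libraries this closeness is a description and was not tested. THBS1, a listed target that encodes a matrix glycoprotein, was the nearest listed target at place 14, at 1.21, 1.03, 0.72 and 1.33 cRPKM. CCN1 was at place 413, TEAD4 at 626, LATS2 at 3535 and PTPN14 at 7623. CCN2 was at place 12626 and ANKRD1 at 12644. The highest library was 9.22 times the lowest for CCN2, against 2.0 for AMOTL2. In MSI1, CCN2 was at 0.547 of the empty vector, against 0.955 for AMOTL2.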

How the data were processed

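The deposited tables give, per gene and library, a whole-number read count and a corrected RPKM (cRPKM) made by the authors. The build is GRCh38 per the submitters' processing notes. On aligner, counting program, annotation release and use of strand, nothing is given in the sources used here. In 6042 well-covered genes, the deposited count over cRPKM scaled with the library total to within 0.0013 on the log2 scale. Of 41614 genes, 1426 had no value and were left out. Ensembl identifiers were matched to symbols for 39941 of the other 40188 (GENCODE 29 and a gene name table). Genes annotated over the members on the opposite strand had at most 47 counts each, apart from the pseudogene KRT18P12 over PTPN14, which was not analysed here.

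Levels are cRPKM. Log2 folds use a pseudocount of 0.5, which understates differences of low genes, and ratios are of counts over the library total. The induced genes of a comparison are left out of its background. The intervals were tried on simulated Poisson counts, which hold counting error only. That trial cannot speak to variation between libraries. Members and lists were chosen with earlier results of these data known. The naming rule took all members, up to 4 called genes per list and comparison, CCN1, CCN2, ANKRD1, the induced genes and the 3 nearest genes. AMOTL1, EGR1, THBS1 and the cell markers fall outside it and were named after their values were seen. Alternatives were other pseudocounts, filters, fold rules, centring, another control library and TMM factors (edgeR 4.0.16 in R 4.3.3). Intervals came from scipy 1.17.1, and other steps from pandas 2.3.3, numpy 2.4.6 and matplotlib 3.10.9 under Python 3.11.15.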

Additional observations from a re-analysis of the deposited data

Results flagged for a closer look

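AMOTL2 was flagged because it was below the empty vector in SRRM3 and above it in SRRM4, in both cases beyond counting error, at ratios of 0.680 and 1.36, with SRRM4 at 2.0 times SRRM3 (1.85 to 2.16). TEAD4 was flagged for the same reason with smaller values, 0.925 in SRRM3 and 1.1 in SRRM4, and SRRM4 at 1.19 times SRRM3 (1.11 to 1.27). Absolute log2 folds at least as large as those of TEAD4 were common, in 50.9%, 33.6% and 19.4% of genes in these comparisons. The flag was applied to the members only, so the share of all genes it would pick was not worked out. With 1 library in each group the difference between the libraries was not tested, and the ratios to the empty vector share that library.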

How the results depend on the processing

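The count of members at least 2-fold different was 0 in all 4 comparisons and stayed 0 under each alternative except a 1.5-fold rule, which gave 1 (AMOTL2) for SRRM4 over SRRM3. The count at least 25% higher or 20% lower with an interval excluding 1 was 1 in each comparison, and was also 1 with TMM factors, with centring on the median and without the filter. With a 1.1-fold rule it was 4 in MSI1, 5 in SRRM3, 2 in SRRM4 and 3 in SRRM4 over SRRM3. With a 1.5-fold rule it was 0 in SRRM3 and 0 in SRRM4. The share of all genes called by the 1.1-fold and 1.5-fold rules was not worked out, so these counts have no background beside them. With a mean of at least 5 cRPKM required the count was 0 in SRRM3, 0 in SRRM4 and 0 in SRRM4 over SRRM3. AMOTL2 (mean 4.98) then drops out. With another control library it was 2 in MSI1 (over SRRM3), 2 in SRRM3 and 2 in SRRM4 (over MSI1), in each case TEAD3 and AMOTL2. The shifts of 160 single-member log2 folds under other pseudocounts, TMM factors or centring were set against their counting intervals. The measure was the mean distance from the ratio to the ends of its interval, on the log2 scale. By that measure 158 folds moved by less, 2 moved by more and 0 reversed. Both were AMOTL2 with a pseudocount of 2 (-0.38 in SRRM3 and 0.70 in SRRM4 over SRRM3). No paired analysis was possible because each group has 1 library, and for the same reason no replicate could be left out.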

Other observations

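Of the 22 listed YAP-TEAD targets, 7 did not pass the filter. One of them, MYOF (a membrane repair protein), named after its values were seen, had 34 counts in the empty vector, 18 in MSI1, 7 in SRRM3 and 41 in SRRM4, with a ratio of SRRM4 to SRRM3 of 6.11 (2.71 to 16.1).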
